A study of Mus musculus with 6 samples.

Results

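The transcription factor genes that maintain hematopoietic stem cells were examined in mouse bone marrow LSK cells (lineage-negative, Sca1-positive, c-Kit-positive), the sorted fraction that contains stem cells and multipotent progenitors. The set held 10 genes, Mecom, Hlf, Gata2, Prdm16, Runx1, Tal1, Lmo2, Lyl1, Erg and Fli1, chosen by name, and every probe set annotated to 1 of them alone was taken, which gave 24 of the 45037 probe sets tested and 10 of 18193 genes. All mice were C57BL/6 and carried the Mx1-Cre transgene, whose promoter responds to interferon. Control mice had intact Srf alleles (Srf+/+), and SRF-null mice had loxP-flanked ones (Srf flx/flx). The recombinase was induced in both genotypes at 6 weeks of age by the double-stranded RNA pIpC (3 doses of 200 µg, spaced by 2 days), and the marrow was collected 35 days later. Mx1-Cre acts in many interferon-responsive cells and not in stem cells alone. LSK cells were sorted from pooled animals, with 3 control and 3 SRF-null arrays. The sources used here do not say whether pools shared animals, and p-values then reflect only the spread of these 6 samples, which may be technical.

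Stem cell transcription factors act as a densely connected group. Tal1, Lyl1, Lmo2, Gata2, Runx1, Erg and Fli1 bind together at many enhancers of blood progenitors, in part at each other's genes, while Mecom, Prdm16 and Hlf are most active in the stem cells themselves and fall as these differentiate. SRF, the factor deleted here, binds a sequence called the CArG box and controls actin cytoskeleton and immediate early genes.

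Values are quantile-normalized log2(signal + 16), so the bottom of the scale is 4, and differences are SRF-null minus control with the limma standard error (SE) and 95% interval. Levels of different probe sets are not comparable. The targeted gene, Srf, was at 13.04, 13.00 and 13.04 in control and at 12.58, 12.43 and 12.80 in SRF-null replicates 1 to 3 on its brighter probe set, with no overlap (difference −0.42, SE 0.14, limma adjusted p = 1). Its dimmer probe set differed by 0.10 (SE 0.35), and the sources used here do not place either relative to the deleted part. Kit, the receptor that defines LSK cells, lay at 14.81 to 15.44. Of 11 T and NK cell markers measured, the T cell receptor chain genes Cd3d (4.24 to 5.05) and Cd3g (at most 4.87) lay near the bottom of the scale and Nkg7 at 15.77 to 16.36. Of 11 granulocyte markers Itgam (5.47 to 6.18) and Ltf (4.27 to 5.77) lay near the bottom. Mpo (17.13 to 17.70), Prtn3 (16.01 to 16.71) and Ctsg (15.58 to 17.08), genes of granule proteins, lay far above it. So did S100a8 (10.64 to 14.15) and S100a9 (11.13 to 14.07), which varied widely between arrays, while Camp (5.83 to 8.70) and Ngp (6.43 to 9.25) lay between. These markers were named after their values were seen. Median signals per array before normalization were 200.4 to 292.2. Control replicate 2 lacked transcripts of the Y chromosome (Kdm5d at the bottom of the scale), and SRF-null replicate 1 lacked Xist (5.03, against 15.13 to 16.24). These pools thus carried 1 sex and the other 4 both. Kdm5d was at 10.54 and 10.57 in control replicates 1 and 3 and at 11.98, 11.84 and 11.97 in SRF-null replicates 1 to 3. The Y-linked Uty and Eif2s3y were also higher on every SRF-null array than on every control. Whether the share of male cells differed between genotypes was not tested, and leaving out the arrays of 1 sex does not remove such a difference.

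No difference of the 10 stem cell factor genes between the genotypes passed the test. Of their 24 probe sets 0 passed a limma adjusted p of 0.05, as did 0 of all 45037 (0%), and the adjusted p was 1 for each of the 24. At an unadjusted p below 0.05, 1 probe set was lower (2.02% of all) and 1 was higher (2.37% of all). The groups did not overlap on 2 probe sets with lower signals in SRF-null cells (4.50% of all) and on 2 with higher ones (4.74% of all). With the replicate number as a block, 2 of the 24 had an unadjusted p below 0.05 and 0 passed the adjustment, while over all probe sets that count was 3189 (7.08%) with the block and 1975 without it. By the brightest probe set of each gene, 8 genes were lower in SRF-null cells and 2, Runx1 and Fli1, were higher, where 51.4% of all genes were lower. The median of the 10 differences was −0.096 and that of all genes was −0.0069. The direction of this majority rested on 1 array: without SRF-null replicate 3 only 4 of 10 genes were lower and the median was 0.022. Without control replicate 1 the majority shrank to 6 genes with a median of −0.042.

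**Figure D1:**
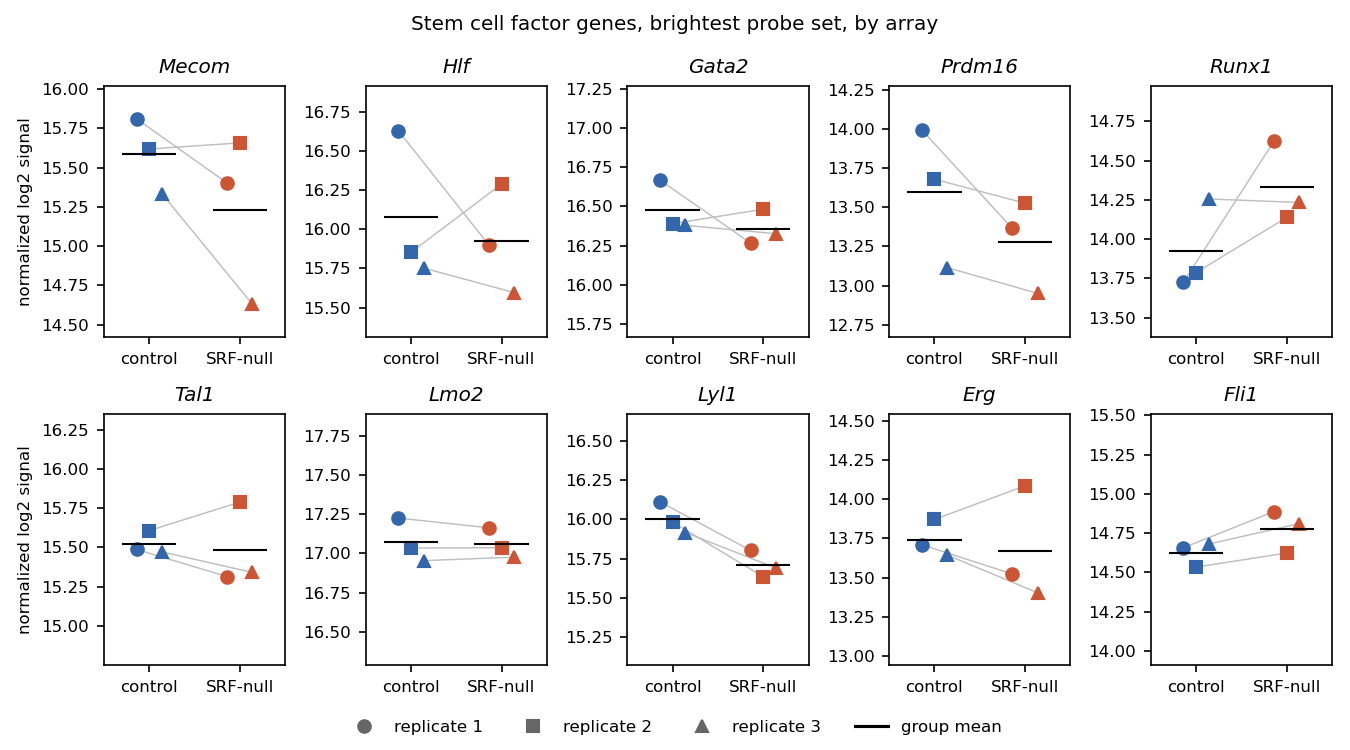
Normalized log2 signal of the brightest probe set of each of the 10 genes on the 3 control (blue) and 3 SRF-null (red) arrays, with the group mean as a bar, replicate numbers as symbols and grey lines joining equal numbers. Each vertical axis spans the same range of log2 units around its own centre, and Lyl1 is the gene whose groups do not overlap.

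Mecom and Prdm16 encode related zinc-finger proteins with a PR domain, both required by adult stem cells. Mecom was at 15.81, 15.62 and 15.33 in control and at 15.40, 15.66 and 14.63 in SRF-null replicates 1 to 3. SRF-null replicate 3 stood lowest while the second SRF-null array lay above 2 of the 3 controls, so the groups overlapped. The difference was −0.36 (SE 0.30, interval −1.09 to 0.37). With each array left out in turn it ranged from −0.57 (without SRF-null replicate 2) to −0.058 (without SRF-null replicate 3). The other probe sets of Mecom were dim in both genotypes. One of them had a control mean of 5.50 and an SRF-null mean of 4.87, and its groups did not overlap (−0.63, SE 0.23, limma adjusted p = 1). Its deposited signals were 24.8 to 32.0 in control and 7.23 to 24.2 in SRF-null arrays, close to the offset of 16. The other differed by −0.093 (SE 0.71).

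Prdm16 was at 13.99, 13.68 and 13.12 in control and at 13.37, 13.53 and 12.95 in SRF-null arrays on its brightest probe set. It was lower in SRF-null cells within each of the 3 number pairs (−0.63, −0.15 and −0.16), a pattern found in 15.9% of all genes, yet the groups overlapped (difference −0.31, SE 0.28, interval −0.99 to 0.36). Its probe sets did not share a direction: those with control means of 10.55 and 8.34 differed by −0.33 (SE 0.16) and −0.67 (SE 0.37), and the one with a control mean of 13.01 differed by 0.11 (SE 0.19). Without control replicate 1 the brightest differed by −0.12, and without control replicate 3 by −0.55.

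The promoter windows of these 2 genes share a stretch found nowhere else among the windows compared. RefSeq windows (GRCm38.p6) run from 250 bases before to 50 after a transcript start, and 14 of them belong to 8 of the 10 genes. No entry was used for Lmo2 and Fli1. Over 84 pairs of windows from different genes, the longest run in common had 24 bases and lay just after the start in Mecom and Prdm16. It is shown because no other pair of windows in the set shares a run of that length. Of all 32851 windows 2 hold this run. The run is in capitals. The printed stretches of 30 bases are chr3:30509710-30509739 (minus strand) in Mecom and chr4:154636841-154636870 (minus strand) in Prdm16. They start at position 21 in Mecom and position 4 in Prdm16, counted from 1 at the start.
Mecom: tctaacGCGCATGTGCGAAGGTGTCCAAAC
Prdm16: ctctgtGCGCATGTGCGAAGGTGTCCAAAC
The run includes an E-box (CANNTG), at positions 30 to 35 in Mecom and 13 to 18 in Prdm16. The next longest run shared by a pair had 14 bases, and lay in Lyl1 and Erg.

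Hlf, a leucine zipper factor whose expression marks stem cells, was at 16.63, 15.85 and 15.75 in control and at 15.90, 16.29 and 15.60 in SRF-null arrays. Control replicate 1 stood apart above the other 5 arrays, and within the pairs the SRF-null array was lower in replicates 1 and 3 and higher in replicate 2. The difference was −0.15 (SE 0.30, interval −0.89 to 0.59), and it turned to 0.13 without control replicate 1 and to 0.016 without SRF-null replicate 3. The second probe set followed the first across arrays (Pearson r = 0.99 over 6 arrays, a description) and differed by −0.11 (SE 0.28).

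Gata2, a zinc-finger factor needed for stem cell survival and also used by mast cells and megakaryocytes, was at 16.67, 16.39 and 16.38 in control and at 16.27, 16.48 and 16.33 in SRF-null arrays. SRF-null replicate 2 lay above 2 controls, and the difference was −0.12 (SE 0.14, interval −0.47 to 0.23). It was −0.026 without control replicate 1 and −0.18 without SRF-null replicate 2. On the second probe set the controls were at 15.70, 15.54 and 15.33 and the SRF-null arrays at 15.27, 15.33 and 15.24, all 3 lower within their pairs. The groups there overlapped narrowly (difference −0.24, SE 0.14).

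Tal1 and Lyl1 are close relatives of the basic helix-loop-helix class, and Lmo2 is the LIM adaptor that ties them to GATA factors. Tal1 was at 15.49, 15.61 and 15.47 in control and at 15.31, 15.79 and 15.34 in SRF-null arrays. The SRF-null arrays lay on both sides of the controls, and the difference was −0.041 (SE 0.17, interval −0.46 to 0.38), which turned to 0.043 without SRF-null replicate 1. Lmo2 was at 17.23, 17.03 and 16.95 in control and at 17.16, 17.04 and 16.98 in SRF-null arrays. Its groups were interleaved (difference −0.013, SE 0.14, interval −0.35 to 0.32), with 0.065 without control replicate 1 and 0.029 without SRF-null replicate 3.

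Lyl1 was the gene among the 10 whose groups did not overlap on the brightest probe set, where 10.6% of all genes did not. It was at 16.11, 15.98 and 15.92 in control and at 15.80, 15.63 and 15.69 in SRF-null arrays. Every SRF-null array lay below every control, and the pairs differed by −0.31, −0.35 and −0.23. The difference was −0.29 (SE 0.13, interval −0.60 to 0.016), a 1.23-fold lower signal, and did not pass (limma adjusted p = 1; two-sided exact permutation test, p = 0.1, the smallest that 3 against 3 arrays allow). Over the alternatives it ranged from −0.35 to −0.24, with adjusted p-values from 0.741 to 1. Lyl1 has 1 probe set, so no second measurement stands beside it.

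Runx1, the core-binding factor required for blood stem cell formation, had higher signals in SRF-null cells on most of its probe sets. On its brightest probe set it was at 13.73, 13.79 and 14.26 in control and at 14.62, 14.14 and 14.23 in SRF-null arrays. Control replicate 3 lay above 2 SRF-null arrays, so the groups overlapped (difference 0.41, SE 0.21, interval −0.12 to 0.93). With each array left out in turn the difference ranged from 0.26 (without SRF-null replicate 1) to 0.58 (without control replicate 3). It was 0.19 without both arrays of 1 sex. Of its 6 probe sets 5 were higher and 1, dim at 4.50 to 6.14, differed by −0.020 (SE 0.50). A further probe set was at 12.54, 12.36 and 12.43 in control and at 13.00, 12.74 and 12.81 in SRF-null arrays, with no overlap. It differed by 0.40 (SE 0.135, interval 0.071 to 0.73), or 1.32-fold, with pair differences of 0.46, 0.38 and 0.37 (limma adjusted p = 1). The remaining 3 differed by 0.14 (SE 0.26), 0.15 (SE 0.21) and 0.37 (SE 0.21), and the last of these did not overlap. These probe sets measure 1 gene on the same arrays and are not independent of each other.

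**Figure D2:**
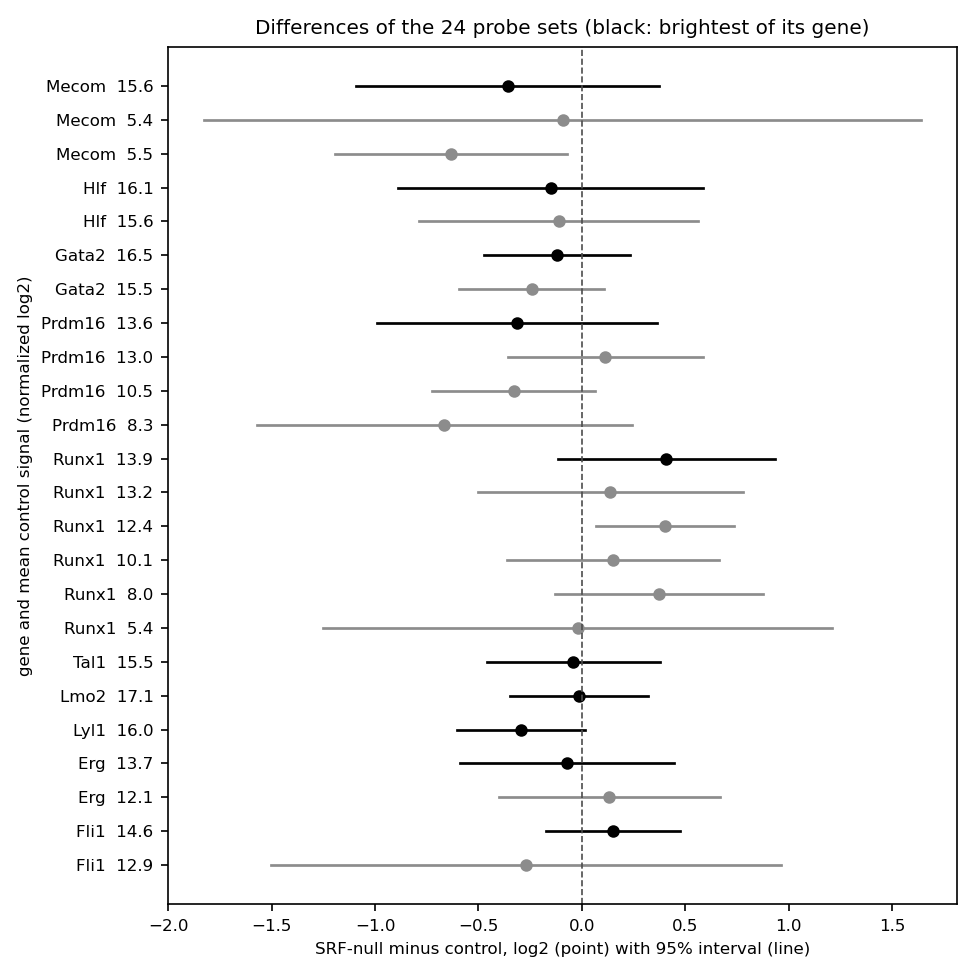
Difference between genotypes (point, log2, SRF-null minus control) with its 95% interval (line) for all 24 probe sets, labelled by gene and mean control signal, brightest of each gene in black. The interval lies off 0 for 1 dim probe set of Mecom and 1 of Runx1.

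Erg and Fli1 encode sister ETS factors, and Fli1 also drives megakaryocyte genes. Erg was at 13.71, 13.87 and 13.64 in control and at 13.52, 14.08 and 13.40 in SRF-null arrays. SRF-null replicate 2 was the highest array and SRF-null replicate 3 the lowest (difference −0.071, SE 0.21, interval −0.59 to 0.45). Without SRF-null replicate 3 it was 0.062, and the second probe set differed by 0.13 (SE 0.22). Fli1 was at 14.66, 14.53 and 14.68 in control and at 14.89, 14.62 and 14.81 in SRF-null arrays. It was higher within each pair (0.23, 0.090 and 0.13), as were 14.0% of all genes, but SRF-null replicate 2 lay below 2 controls (difference 0.15, SE 0.13, interval −0.18 to 0.48). Its second probe set went the other way (−0.27, SE 0.50), with SRF-null replicate 2 at 11.47, against 12.61 to 13.27 on the other 5 arrays.

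Short motifs in the promoter windows were searched on both strands because SRF and several of the 10 factors have known recognition sequences. The CArG box of SRF was found in 0 of the 14 windows and in 1.63% of all 32851 windows. At so low a share 0 is the likely count in 14 windows of any genes, so it does not show whether SRF binds near these genes. The ETS core CCGGAA was found in 3 of 14 windows (14.9% of all), the RUNX core TGTGGT in 1 (16.8% of all), the GATA core GATAA in 4 (25.4% of all) and the E-box CANNTG in 8 (72.3% of all), and 0 of the 23 matches in the 14 windows overlapped a match of another motif. The Lyl1 window holds 2 ETS cores, as 3.59% of windows hold 2 or more, and it is printed because Lyl1 was the gene with separated groups (chr8:84701266-84701405, plus strand). The windows of Runx1, the gene with the largest difference in the other direction, hold an ETS core before the inner start (chr16:92697418-92697447, minus strand) and 2 RUNX cores after the outer start (chr16:92826030-92826049, minus strand), and 1.81% of windows hold 2 or more of these. Capitals mark the cores, read on either strand.
Lyl1: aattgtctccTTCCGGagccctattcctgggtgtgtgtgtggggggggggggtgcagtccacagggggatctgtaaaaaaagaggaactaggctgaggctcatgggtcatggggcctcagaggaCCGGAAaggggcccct
Runx1 inner start: cccaggctgataCCGGAAaggcctgtgatt
Runx1 outer start: acaACCACAgaACCACAagt
A match is a description of the letters and not evidence of binding in these cells.

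For 7 of the 10 genes the difference between genotypes was smaller than the larger SD within a genotype. Control replicate 1 was the highest of the 6 arrays for 6 of the 10 genes, where it was highest for 12.9% of all genes. It was the lowest for 1 of the 10 and for 25.3% of all genes, the largest such share of any array. The shares over all genes are not matched to the bright signals of the 10. SRF-null replicate 3 was the lowest for 4 of the 10, against 15.8% of all genes. Averaged over the 10 genes, control arrays were at 15.40, 15.24 and 15.15 and SRF-null arrays at 15.22, 15.33 and 15.00, and these means overlapped. Across the 6 arrays, which share their normalization and pools, Mecom and Prdm16 varied together (Pearson r = 0.88). So did Tal1 and Erg (0.98), Hlf and Gata2 (0.89) and Runx1 and Fli1 (0.82). Of the 45 gene pairs 18 had a negative r. Between the 2 brightest probe sets of 1 gene, r was 0.43 for Prdm16, 0.47 for Fli1 and 0.59 for Mecom. It was 0.78 for Runx1, 0.81 for Gata2, 0.85 for Erg and 0.99 for Hlf. Of 10751 other genes with a mean level of at least 8, those whose pattern was most like the mean of the 10 were Pkd1 (r = 0.99), which encodes polycystin, the ubiquitin ligase gene Arih2 (0.99), the lymphocyte GTPase gene Gimap1 (0.98), the glycosyltransferase gene Gcnt2 (0.98) and Inafm1 (0.98). These were picked for the highest r over only 6 arrays, so values this high can come from the search alone and do not show shared regulation.

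**Figure D3:**
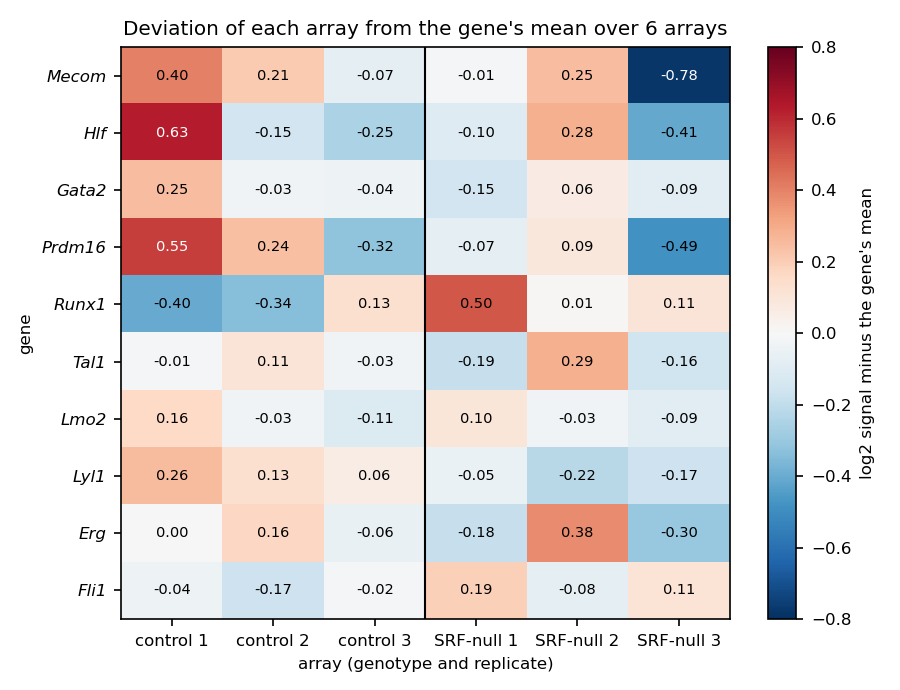
Deviation of each array (columns, 3 control then 3 SRF-null) from the gene's mean over 6 arrays (rows, 10 genes, log2, brightest probe set). Control replicate 1 is high for Hlf (0.63), Prdm16 (0.55) and Mecom (0.40), SRF-null replicate 3 is low for the same genes, and Runx1 runs the other way on the first control array (−0.40).

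Genes of proteins that bind the 10 factors likewise held none that passed the limma adjustment (0 of 22 measured). Of these 13 were lower and 9 higher with a median of −0.037. At an unadjusted p below 0.05, 1 was lower (2.37% of all genes) and 0 were higher (2.58% of all genes). That gene was Men1, which encodes menin, a cofactor of the histone methyltransferase MLL. It was at 12.78, 12.96 and 13.05 in control and at 12.53, 12.33 and 12.40 in SRF-null arrays, with no overlap (difference −0.51, SE 0.14, limma adjusted p = 1). The next by p were Runx1t1 (−0.79, SE 0.39), the E protein gene Tcf3 (−0.58, SE 0.33) and the histone deacetylase gene Hdac2 (−0.25, SE 0.16). The obligate partner of RUNX1, Cbfb, differed by −0.062 (SE 0.11), with no overlap. Ldb1, which bridges LMO2 to DNA-bound complexes, differed by −0.26 (SE 0.22), and its groups overlapped. Cbfb and Ldb1 were named after their values were seen. Groups did not overlap for 2 of the 22 genes (10.6% of all genes), Men1 and Cbfb.

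Among other regulators of stem and progenitor cells 21 of 32 measured genes were lower and 11 higher, with a median of −0.12, and 0 passed the limma adjustment. At an unadjusted p below 0.05, 3 were lower (2.37% of all genes) and 0 higher (2.58% of all genes). Groups did not overlap for 8 of the 32 genes (10.6% of all genes), 5 lower and 3 higher, the latter being Ikzf1, Elf1 and Elf4. Tcf15, a helix-loop-helix gene linked to stem cell quiescence, was at 10.13, 10.68 and 10.37 in control and at 9.07, 9.77 and 8.92 in SRF-null arrays (difference −1.14, SE 0.28, limma adjusted p = 0.982). Egr1, itself a target of SRF, differed by −1.20 (SE 0.36), Mycn by −0.71 (SE 0.23) and Hoxb4 by −0.41 (SE 0.17), and the groups of each of these 4 genes did not overlap. The number pairs were uneven for Egr1 (−1.85, −0.12 and −1.62) and Hoxb4 (−0.58, −0.039 and −0.61), with little difference in replicate 2.

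Described target genes of the factors split evenly. Of 25 measured, 12 were lower and 13 higher with a median of 0.00083, and 0 passed the limma adjustment. The gene at this median stayed under a signal of 16 on every array. At an unadjusted p below 0.05, 3 were lower (2.37% of all genes) and 0 higher (2.58% of all genes), and groups did not overlap for 5 of the 25 (10.6% of all genes). These 3 encode receptors shared by stem cells and endothelium: Tek, the receptor for angiopoietins, by −0.84 (SE 0.19, limma adjusted p = 0.937), Eng by −0.66 (SE 0.17) and Tie1 by −0.93 (SE 0.24), each without overlap. Nfe2, a megakaryocyte and erythroid factor gene, differed by −0.29 (SE 0.13). All 3 receptors are also among 15 endothelial markers measured, of which 9 were lower and 6 higher. At an unadjusted p below 0.05, 3 of these were lower, the same receptors, and 1 was higher, the tight junction gene Cldn5 (1.35, SE 0.43), at 5.01 to 7.15. The endothelial cadherin gene Cdh5 lay at 6.39 to 7.40. The summed signal of the 15 markers overlapped between control (70023 to 90815) and SRF-null arrays (53346 to 78626). Without Egfl7, the brightest, it was 50077 to 59298 and 30907 to 43187, with no overlap, and this sum includes the 3 receptors. Cldn5, Cdh5 and Egfl7 were named after their values were seen.

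**Figure D4:**
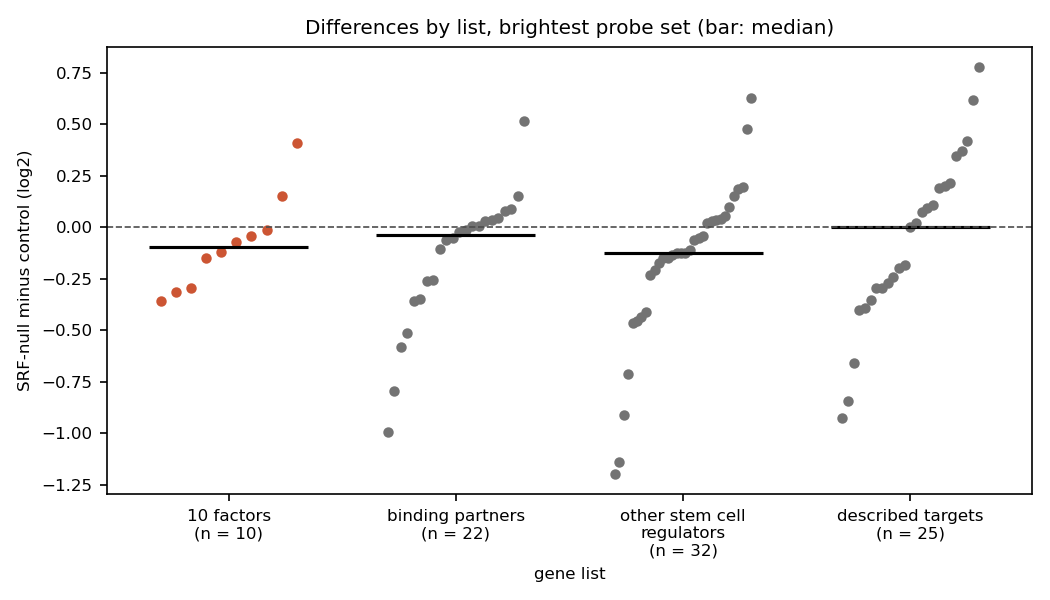
Differences between genotypes (log2, SRF-null minus control, brightest probe set) for the 10 factors, 22 genes of binding partners, 32 other stem cell regulators and 25 described targets, with the median as a bar. The 10 factors lie between −0.36 and 0.41, and the other lists reach further in both directions.

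Markers of other stages and cells were read from the same arrays, and 0 genes of these lists passed the limma adjustment. Of 12 measured stem cell surface genes 9 were lower (median −0.24), with Tek and Fgd5 (−0.70, SE 0.25) having the smallest p. At an unadjusted p below 0.05, 2 were lower (2.37% of all genes) and 0 higher, and their summed signals overlapped (328295 to 397769 in control and 294640 to 360223 in SRF-null arrays). Of 11 multipotent and lymphoid progenitor genes 10 were higher (median 0.43), with Satb1 (0.61, SE 0.15) and Il7r (2.11, SE 0.51) having the smallest p, and 4 were higher and 0 lower at an unadjusted p below 0.05 (2.58% of all genes higher). Their summed signals were 298302 to 387427 in control and 393091 to 456950 in SRF-null arrays, with no overlap, and overlapped once the brightest gene, Dntt, was left out (217143 to 294314 and 282181 to 336370).

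Of 12 macrophage markers 11 were higher, 5 of them at an unadjusted p below 0.05 (2.58% of all genes), with Ctss (0.75, SE 0.19) and Mrc1 (2.08, SE 0.55) first by p. Their sums were 33389 to 63464 in control and 65023 to 91322 in SRF-null arrays. Ctss made up 44.2% to 63.6% of them, and without it they overlapped (12140 to 35412 and 30152 to 42494). Of 11 T and NK cell markers 9 were higher, 5 at an unadjusted p below 0.05 (2.58% of all genes), with Cd7 (1.74, SE 0.28) and Cd247 (0.68, SE 0.18) first. Nkg7, a gene of cytotoxic granules, made up 90.7% to 92.7% of their sums of 61425 to 71775 and 83549 to 90450, and without it these were 5518 to 5863 and 6594 to 8055, again with no overlap. Sums of 11 stromal markers were 13598 to 18483 in control and 19938 to 37978 in SRF-null arrays, of which Pdgfrb (0.65, SE 0.21) made up 69.5% to 94.8%. Without it the stromal sums overlapped (870.5 to 5640 and 1039 to 10074), Col1a2 differed by −1.78 (SE 0.69), and Col3a1, Dcn and Lum stayed under a signal of 16 on every array. Leaving out the brightest gene was chosen after seeing the data. Summed signals of the mast cell and basophil, megakaryocyte, erythroid, granulocyte and B cell lists overlapped between genotypes. On bulk arrays fewer cells of a type and less RNA per cell cannot be told apart, and the part of the cell mixture in the differences of Lyl1 and Runx1 was not tested.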

How the data were processed

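Deposited values were linear intensities, 1 for each array and probe set. This unit was read from the values, and the sources used here do not give the authors' summary and scaling steps. The series text and the probe annotation name different array types, and the 45101 probe sets were used as they stand, leaving out 64 controls. Probe sets were named from the platform annotation: 34945 named 1 gene, 932 several and 9160 none.

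Because array medians of log2(value + 16) differed by 0.51, above a limit of 0.1, arrays were quantile normalized. Arrays of 1 genotype had Spearman correlations of 0.969 to 0.980 and arrays of different genotypes 0.971 to 0.982. Genotypes were compared with limma 3.58.1 in R 4.3.3 (lmFit, eBayes, two-sided), with Benjamini-Hochberg adjustment over all 45037 probe sets. The code was checked on simulated arrays with independent noise, which does not cover replicates that vary together. The number of arrays limits the precision. Equal replicate numbers were checked as pairs: deviations from group means correlated at 0.473, 0.210 and 0.427, so the replicate number was tried as a block. Levels of lists use the brightest probe set of each gene, by mean over 6 arrays. Named genes are the 10 factors, up to 4 per regulator list and up to 2 per list of cells by smallest p, the 5 genes most like the mean pattern, and Srf and sex-linked genes, with a few markers and cofactors named beyond this rule where the text says so. The members and lists were chosen with earlier results of these data known. Alternatives covered normalization, offset, dim probe sets, variance model, pairing, arrays of 1 sex, probe set choice and each array left out. Figures were drawn with matplotlib 3.10.9.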

Additional observations from a re-analysis of the deposited data

How the results depend on the processing

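No probe set of the 10 genes passed an adjusted p of 0.05 in the limma fit under any alternative run, the replicate block and the gene-level fit included. Of the 150 differences of single genes recomputed under 15 alternatives, 137 kept their direction. All of those of Mecom, Gata2, Prdm16, Runx1 and Lyl1 did. The variance model, the replicate block and the limit to brighter probe sets leave a difference unchanged by construction. The tally includes them although they could not turn a direction. The differences of Tal1 (0.0852) and Erg (0.0670) turned without the arrays of 1 sex. Those of Erg (0.0312) and Fli1 (−0.0593) turned with the mean of all probe sets. Leaving out each array in turn gave −0.330 to 0.125 for Hlf, −0.195 to 0.0426 for Tal1, −0.0712 to 0.0645 for Lmo2, −0.278 to 0.0625 for Erg, −0.226 to 0.0222 for the median of the 10 and 4 to 8 genes lower. Over all probe sets 1 passed with median centring and 0 to 1 with an array left out. The count at an unadjusted p below 0.05 was 1975 as reported, 1230 with median centring, 1127 among the brighter part of the probe sets (22518 tested), 3189 with the replicate block, 1288 without the arrays of 1 sex, and 1423 to 3421 with an array left out. The cause of these shifts was not tested. Some of these fits also had fewer probe sets or fewer arrays. The replicate block changed no call. With 3 arrays a genotype, an exact permutation test could not go below 0.1.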
